A study of Mus musculus with 8 samples.

Results

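Macroautophagy encloses cytoplasm in a double membrane, the autophagosome, and delivers it to the lysosome for breakdown. The ULK1 kinase complex starts the process, a class III phosphatidylinositol 3-kinase complex built on Beclin 1 marks the growing membrane with lipid, ATG9 and ATG2 proteins bring membrane and lipid to it, and a ubiquitin-like conjugation system couples ATG8 proteins (LC3 and GABARAP) to it, which cargo receptors such as p62 then bind. Thymic epithelial cells (TECs), above all those of the cortex, are known for a high constitutive level of autophagy, which feeds peptides of their own cytoplasm to MHC class II molecules during T cell selection.

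The 36 genes described here are a list of the core autophagy machinery: the initiation kinase, the PI3-kinase complex, membrane supply, the conjugation enzymes, the ATG4 proteases, the ATG8 family, 3 cargo receptors and the transcription factors TFEB and TFE3. They were matched by Entrez gene identifier to mouse symbols in the count tables, which hold 27179 identifiers. All 36 were found, and all 36 were among the 18163 genes that reached 1 CPM (counts scaled by the library total) in at least 2 libraries.

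Polyadenylated RNA was sequenced from 8 libraries of thymic epithelium of C57BL/6 mice, to compare Mcl1 knockout (KO) with wild-type (WT) cells of the medulla (mTECs) and of the cortex (cTECs). There was 1 KO mTEC library, with 2 WT mTEC libraries, and 1 KO cTEC library, with 4 WT cTEC libraries. Mcl1 encodes an anti-apoptotic BCL-2 family protein, a family of which several members bind Beclin 1. The labels give neither the deleted part of Mcl1, nor a Cre driver, nor age, nor whether libraries of a group came from separate or pooled animals, so p-values measure only the spread between these libraries.

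Depth was lowest in KO mTEC, with 11516780 counts in total, and highest in WT mTEC 1, with 19171953. Mcl1 stood at 75.6 CPM in KO mTEC, against 107 and 206 CPM in the 2 WT mTEC libraries, and at 8.36 CPM in KO cTEC, against 236 to 308 CPM in the 4 WT cTEC libraries. It was called lower in KO cTEC (log2 -4.97 ± 0.44, adjusted p = 0.000295 by edgeR's quasi-likelihood test) and not in KO mTEC (log2 -1.01 ± 0.36, adjusted p = 0.538). The comparison of KO mTEC with WT mTECs called 0 of 18163 genes, so the missing call cannot show that Mcl1 was unchanged. The KO mTEC library lay below both WT mTEC libraries and still held Mcl1 transcripts. All libraries expressed Epcam, an epithelial surface protein, at 797 to 1158 CPM. The cTEC proteasome subunit gene Psmb11 was at 10.3 to 25.4 CPM in the 3 mTEC libraries and at 146 to 763 CPM in the 5 cTEC libraries. Aire, the mTEC transcriptional regulator, was at 321 to 561 CPM in the mTEC libraries, at 0 counts in KO cTEC and at 29.1 to 121 CPM in the WT cTEC libraries, which thus also held mTEC transcripts. Summed over 14 immediate-early genes, which can rise during tissue dissociation, the level was 3961 CPM in KO mTEC, 2755 and 1686 CPM in the WT mTEC libraries, 6576 CPM in KO cTEC, 3487 CPM in WT cTEC 1, and 20940 to 30020 CPM in WT cTEC 2, 3 and 4. WT cTEC 2, 3 and 4 thus stood above all other libraries on this sum. WT cTEC 1 lay within the range of the mTEC and KO libraries. In bulk samples such as these, fewer cells of a type and less RNA per cell cannot be told apart.

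Summed over its genes, the autophagy list took a smaller share of the counted reads in WT mTECs than in WT cTECs. Its summed level was 2279 CPM in KO mTEC, 2033 and 1978 CPM in the WT mTEC libraries, 2794 CPM in KO cTEC, and 2705, 3088, 2849 and 2813 CPM in WT cTEC 1 to 4. The 3 mTEC libraries lay below the 5 cTEC libraries on this sum, KO mTEC lay above both WT mTEC libraries, and KO cTEC lay within the WT cTEC range. Such a sum gives most weight to genes with many reads. Mean levels in WT mTECs and WT cTECs were 152 and 446 CPM for Sqstm1, 229 and 356 CPM for Map1lc3b, and 81.9 and 186 CPM for Map1lc3a. Of the 36 genes, 27 had a log2 fold change below 0 and 9 had one above 0, such as Atg3 (151 and 134 CPM).

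Levels of different genes are comparable only per length, as RPKM (CPM divided by the length of the gene model in kilobases). In WT cTECs the most abundant autophagy transcripts per length were Sqstm1 at 223 ± 47 RPKM, Map1lc3b at 208 ± 23.2 RPKM and Map1lc3a at 193 ± 38.2 RPKM (SD, n = 4), which did not differ beyond their spread. Next came Atg3 at 66.5 ± 8.57 RPKM, Becn1 at 64.4 ± 3.66 RPKM and Gabarap at 62.3 ± 3.15 RPKM, again close to each other. In WT mTECs Map1lc3b led at 134 ± 3.23 RPKM, ahead of Map1lc3a at 84.9 ± 33.7 RPKM, Sqstm1 at 76.2 ± 8.05 RPKM and Atg3 at 74.8 ± 9.79 RPKM (SD, n = 2). The leading gene differed among the WT cTEC libraries: Map1lc3b led in WT cTEC 1 (230 RPKM) and WT cTEC 3 (225 RPKM), Sqstm1 in WT cTEC 2 (293 RPKM) and Map1lc3a in WT cTEC 4 (229 RPKM). The lowest levels per length were those of Pik3r4 in WT mTECs, at 2.43 ± 0.107 RPKM (SD, n = 2), and of Atg2b in WT cTECs, at 3.57 ± 0.583 RPKM (SD, n = 4).

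**Figure D1:**
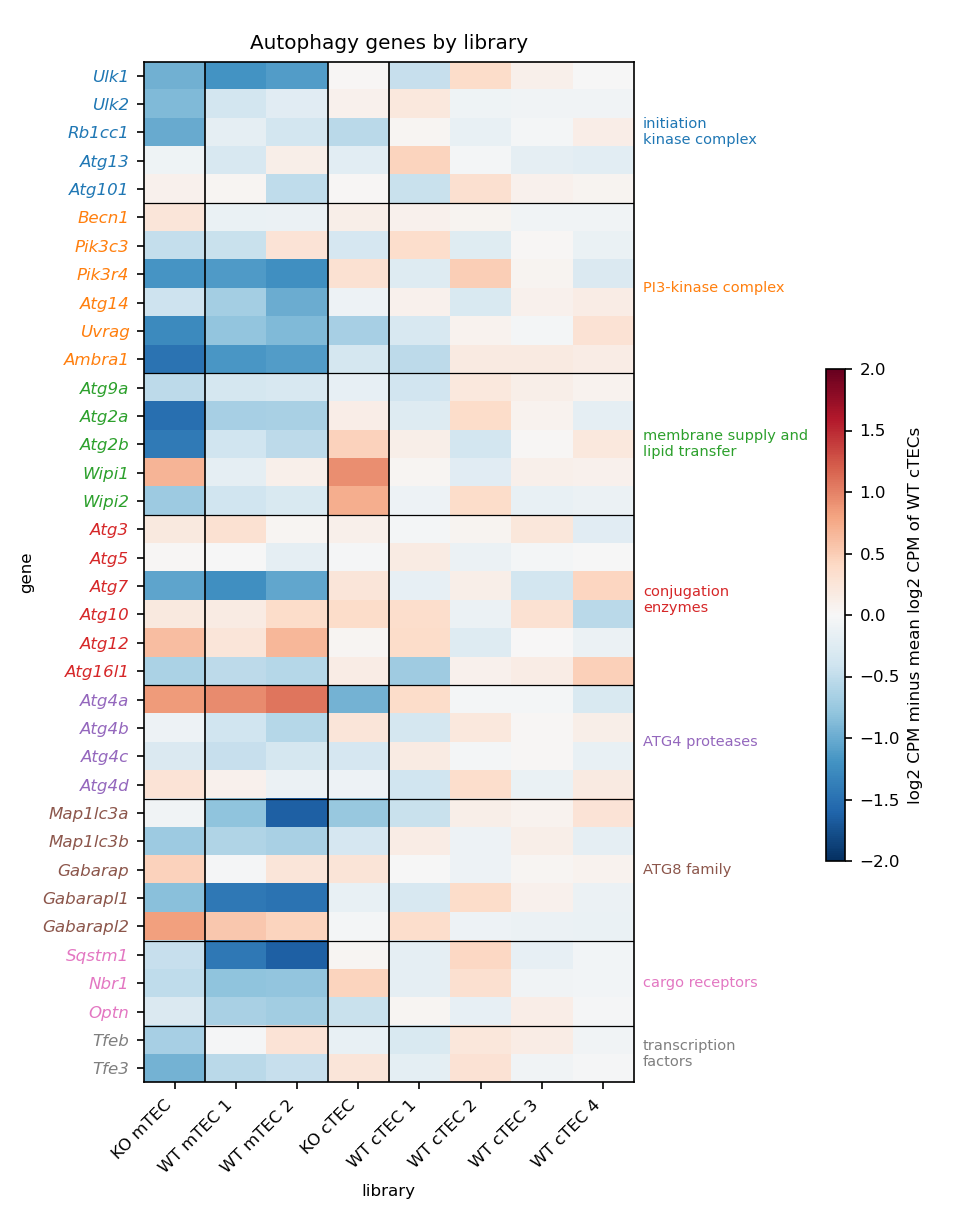
Heat map of the 36 autophagy genes (rows, ordered by role) in the 8 libraries (columns, KO mTEC and WT mTEC at the left, KO cTEC and WT cTEC at the right); colour shows log2 CPM minus the gene's mean log2 CPM over the 4 WT cTEC libraries, blue for lower and red for higher. Sqstm1, Gabarapl1, Ulk1, Pik3r4, Ambra1 and Atg7 are blue in both WT mTEC libraries, Atg4a is red in the 3 mTEC libraries and blue in KO cTEC, and Wipi1 is red in both KO libraries.

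Promoter sequences of 4 members are printed because the results turn on them in different ways: Sqstm1 and Gabarapl1 had the largest differences between WT mTECs and WT cTECs, Atg14 also differed, and Atg3 did not. Each run covers 250 bases before and 50 bases after the RefSeq start, 300 bases in all, 5′ to 3′ on the gene's strand, in GRCm38.p6, the assembly called mm10. Capitals mark the E-box CACGTG, the core of the element that TFEB and TFE3 are known to bind. The positions are chr11:50210771-50211070 on the minus strand for Sqstm1, chr6:129532942-129533241 on the plus strand for Gabarapl1, chr14:47568385-47568684 on the minus strand for Atg14 and chr16:45158579-45158878 on the plus strand for Atg3.
Sqstm1: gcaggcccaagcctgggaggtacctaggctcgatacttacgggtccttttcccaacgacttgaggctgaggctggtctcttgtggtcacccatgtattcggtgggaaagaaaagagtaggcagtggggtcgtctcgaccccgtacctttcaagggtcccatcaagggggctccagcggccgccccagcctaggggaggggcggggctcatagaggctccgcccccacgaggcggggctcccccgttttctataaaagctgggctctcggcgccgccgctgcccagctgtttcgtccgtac
Gabarapl1: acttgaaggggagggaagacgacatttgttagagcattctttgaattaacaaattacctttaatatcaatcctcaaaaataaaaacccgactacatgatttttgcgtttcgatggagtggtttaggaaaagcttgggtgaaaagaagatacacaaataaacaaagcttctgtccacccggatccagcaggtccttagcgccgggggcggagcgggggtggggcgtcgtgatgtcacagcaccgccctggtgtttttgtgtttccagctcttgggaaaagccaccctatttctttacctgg
Atg14: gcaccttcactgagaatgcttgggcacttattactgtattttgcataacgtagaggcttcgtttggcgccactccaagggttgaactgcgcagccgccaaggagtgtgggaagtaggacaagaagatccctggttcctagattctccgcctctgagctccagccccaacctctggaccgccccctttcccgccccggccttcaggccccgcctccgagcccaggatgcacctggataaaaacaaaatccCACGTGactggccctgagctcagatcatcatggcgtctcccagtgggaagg
Atg3: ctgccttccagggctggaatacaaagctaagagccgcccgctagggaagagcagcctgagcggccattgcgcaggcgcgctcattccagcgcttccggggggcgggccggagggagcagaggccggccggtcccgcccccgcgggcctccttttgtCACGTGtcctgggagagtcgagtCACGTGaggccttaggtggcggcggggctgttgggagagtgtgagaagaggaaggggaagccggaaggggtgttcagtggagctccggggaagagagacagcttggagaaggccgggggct

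Atg14 held 1 E-box at its start, Atg3 held 2, and Sqstm1 and Gabarapl1 held none in this window. The RefSeq promoter table had entries for 30 of the 36 genes, with 36 promoters in all because some genes have several starts. CACGTG, searched on both strands, was found in 4 of these 36 promoters (11.1%), against 7.15% of the 32851 promoters in the table; the genes were Atg14, Atg3, Atg5 and Atg7. The longer CLEAR element, CACGTG with GT before it and AC after it, was in 0 of the 36 and in 0.326% of all promoters. The core of the antioxidant response element, TGACNNNGC, was in 3 of the 36 (8.33%; Atg13, Map1lc3b and Ulk2), against 12.4% of all. The AP-1 element TGACTCA was in 0 of the 36, against 5.2% of all. Of the 4 genes with an E-box in the window, Atg14 and Atg7 were lower in WT mTECs and Atg5 and Atg3 did not pass the test. The window of Atg7 (chr6:114670846-114671145) lies inside the gene model, at a downstream start. Map1lc3a, Atg12, Rb1cc1, Atg16l1, Pik3c3 and Becn1 were not in the table.

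In WT mTECs over WT cTECs, 13 of the 36 genes were called by edgeR's quasi-likelihood test at a Benjamini-Hochberg adjusted p under 0.05 over all genes tested. Of the 18163 genes tested, 27.0% were called. Among the autophagy genes 12 were lower and 1 was higher in WT mTECs, against 13.9% of all genes lower and 13.2% higher. The median log2 fold change was -0.34 over the 36 genes and 0.06 over all genes, and 27 of the 36 were below 0. Both WT mTEC libraries lay below all 4 WT cTEC libraries for 21 of the 36 genes and above all 4 for 2, against 26.7% and 27.9% of all genes (54.6% of all genes did not overlap). At an unadjusted p under 0.05 there were 17 of the 36, against 41.0% of all genes. The counts of calls depended on the small number of WT mTEC libraries: 0 of the 36 were called without WT mTEC 2 and 2 without WT mTEC 1, when calls over all genes fell to 3.42% and 6.5%. Without WT cTEC 3 the count was 8, and without WT cTEC 1 it was 19. In these 4 fits 25 to 28 of the 36 fold changes were below 0. Atg14, Uvrag, Map1lc3a, Map1lc3b and Optn lost their calls without WT cTEC 3. Uvrag and Map1lc3a also lost theirs without WT cTEC 2, and Atg14 without WT cTEC 4.

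Other transcripts moved with this comparison. Of the 14 immediate-early genes 11 were lower in WT mTECs, with none at 0 in any library. Of 8 dendritic cell and macrophage genes tested 6 were higher, and the summed level of the list of 9 was 750 and 1080 CPM in WT mTECs, against 143 to 251 CPM in WT cTECs. None of the 9 was at 0 in WT mTECs, and 0 to 3 of them were in the WT cTEC libraries. Of 8 tuft cell genes 4 were lower in WT mTECs, with a sum of 716 and 858 CPM against 1048 to 1722 CPM. Of 6 fibroblast genes 1 was lower, with a sum of 154 and 140 CPM in WT mTECs, against 602 to 887 CPM in WT cTECs. A fit with WT cTEC 1 as the only WT cTEC library was added after its immediate-early level was seen to be below that of the other WT cTEC libraries. That fit has 1 residual degree of freedom, and its spread comes from the WT mTEC pair alone, so it is no measure of stability. Several fold changes were smaller against WT cTEC 1 alone. Among them were Uvrag at -0.47, Ambra1 at -0.58, Ulk1 at -0.65, Map1lc3a at -0.66 and Atg4a at 0.67 (log2). Sqstm1 was at -1.30 and Gabarapl1 at -1.09. The part of the other cell types in the result was not tested.

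**Figure D2:**
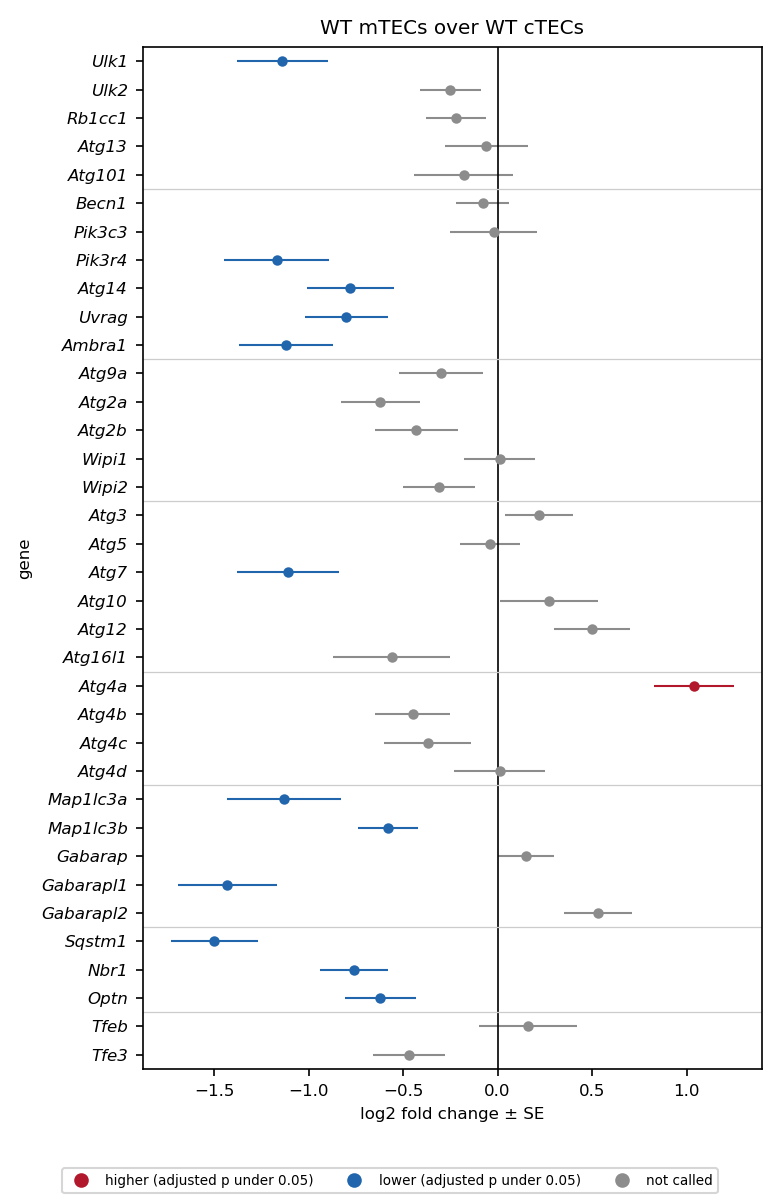
Log2 fold change of each of the 36 autophagy genes in WT mTECs over WT cTECs (points) with its standard error (bars), from 2 and 4 libraries, with genes grouped by role. The 12 genes marked as lower lie between -1.50 for Sqstm1 and -0.58 for Map1lc3b, and Atg4a, at 1.04, is the gene marked as higher.

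Each role holds few genes, and its calls were not tested as a set against the 13.9% of all genes lower and 13.2% higher. Of the 5 genes of the initiation kinase complex, 1 was lower in WT mTECs and 4 did not pass the test. Ulk1 (chr5:110784489-110810120), the kinase that starts autophagy under control of mTOR and AMPK, was at 42.6 and 45.3 CPM in WT mTECs, against 70.8, 126, 105 and 97.6 CPM in WT cTECs. The groups did not overlap, and WT cTEC 1 was the lowest of the 4. The log2 fold change was -1.14 ± 0.24 (SE), with an adjusted p of 0.012. Its paralogue Ulk2 was at 46.8 and 51.8 CPM in WT mTECs, against 70.3, 57.1, 58 and 58 CPM in WT cTECs, with a log2 fold change of -0.25 ± 0.16 and an adjusted p of 0.251. Per length, Ulk1 was 1.02 and 0.979 times Ulk2 in WT mTECs, against 1.13, 2.47, 2.03 and 1.88 times in WT cTECs. The 2 kinase transcripts were thus about level in WT mTECs and in WT cTEC 1, and Ulk1 exceeded Ulk2 in WT cTEC 2, 3 and 4. The scaffold gene Rb1cc1, which encodes FIP200, and the subunit genes Atg13 and Atg101 had log2 fold changes of -0.22, -0.06 and -0.18, none of which passed the test.

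The PI3-kinase complex had 4 of its 6 genes lower in WT mTECs, against 13.9% of all genes. Neither the catalytic subunit gene Pik3c3 (VPS34) nor Becn1 (Beclin 1) passed the test. Pik3r4 (chr9:105642995-105687655), which encodes the VPS15 subunit that activates VPS34, was at 12.3 and 11.5 CPM in WT mTECs, against 22.6, 38, 28.2 and 22.1 CPM in WT cTECs. The WT mTEC libraries lay well below all 4 WT cTEC libraries, with a log2 fold change of -1.17 ± 0.28 and an adjusted p of 0.02. Atg14 (chr14:47540893-47568434), the subunit that directs the complex to autophagy, was at 19.4 and 15.7 CPM in WT mTECs, against 33.2, 25.1, 32.9 and 34.4 CPM in WT cTECs. Here too the groups did not overlap, and WT cTEC 2 was the lowest of the 4. Its log2 fold change was -0.78 ± 0.23, with an adjusted p of 0.0373. Uvrag (chr7:98886742-99141167), which replaces ATG14 in the form of the complex that acts on endosomes, was at 33.4 and 31.3 CPM in WT mTECs, against 46, 60.5, 56.1 and 70.5 CPM in WT cTECs. All WT mTEC values were lower, with a log2 fold change of -0.80 ± 0.22 and an adjusted p of 0.029. Ambra1 (chr2:91730138-91918849), a positive regulator of Beclin 1, was at 21.3 and 22.1 CPM in WT mTECs, against 33.3, 54.4, 54.4 and 52.9 CPM in WT cTECs. Its lowest WT cTEC value, in WT cTEC 1, was still above both WT mTEC values, and the log2 fold change was -1.12 ± 0.25 with an adjusted p of 0.0156. Becn1 was at 119 and 120 CPM in WT mTECs, against 139, 135, 124 and 125 CPM in WT cTECs, a narrow range with a log2 fold change of -0.08 ± 0.14 (adjusted p = 0.688). Pik3c3 overlapped between the groups, at 38.2 and 63.1 CPM in WT mTECs, against 44.1 to 66.7 CPM in WT cTECs (adjusted p = 0.952).

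None of the 5 genes of membrane supply and lipid transfer was called between the WT groups, against 27.0% of all genes. Atg2a, a lipid transfer protein gene, came closest, at 37.3 and 37.9 CPM in WT mTECs, against 49.7, 76.2, 62 and 52 CPM in WT cTECs, with a log2 fold change of -0.62 ± 0.21 and an adjusted p of 0.0604. Its paralogue Atg2b had a log2 fold change of -0.43, Atg9a, which encodes the membrane-spanning scramblase, one of -0.30, and Wipi2, which encodes a lipid-binding protein that recruits ATG16L1, one of -0.31. Wipi1, a second lipid-binding protein of the WIPI family, was at 23.3 and 28.3 CPM in WT mTECs, against 22.4 to 28.2 CPM in WT cTECs, with a log2 fold change of 0.01 ± 0.19.

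Among the 6 conjugation enzymes and their partners 1 was lower in WT mTECs (16.7%), close to the 13.9% of all genes. Atg7 (chr6:114643127-114860604), the E1-like enzyme that activates both ATG12 and the ATG8 proteins, was at 14.3 and 16.4 CPM in WT mTECs, against 29.8, 36.2, 26 and 45.1 CPM in WT cTECs. Every WT cTEC library exceeded both WT mTEC libraries, and the log2 fold change was -1.11 ± 0.27 with an adjusted p of 0.0193. The E2-like enzyme gene Atg3, which attaches ATG8 proteins to lipid, was at 165 and 137 CPM in WT mTECs, against 129, 138, 155 and 114 CPM in WT cTECs, with overlapping groups and a log2 fold change of 0.22 ± 0.18 (adjusted p = 0.378). Atg5, whose product is joined to ATG12, was at 83.1 and 73.2 CPM in WT mTECs, against 77.1 to 93.6 CPM in WT cTECs. Atg12, a ubiquitin-like protein gene, was at 78.9 and 106 CPM in WT mTECs, against 86.6, 55.6, 67.3 and 61.5 CPM in WT cTECs, and the difference of 0.50 ± 0.20 (log2) missed the threshold at an adjusted p of 0.0985. Atg10, which encodes the E2-like enzyme for ATG12, and Atg16l1, which encodes the partner of the ATG12-ATG5 conjugate, had log2 fold changes of 0.27 and -0.56, with adjusted p-values of 0.458 and 0.206.

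Of the 4 ATG4 protease genes, whose products trim ATG8 proteins and release them from lipid, Atg4a was higher in WT mTECs and the other 3 did not pass the test. Over all genes, 13.2% were higher. Atg4a (chrX:140953845-141164194) was at 41.7 and 45.6 CPM in WT mTECs, against 28.1, 21.1, 21.2 and 17.6 CPM in WT cTECs. Both WT mTEC libraries lay above all 4 WT cTEC libraries, of which WT cTEC 1 was the highest. The log2 fold change was 1.04 ± 0.21, with an adjusted p of 0.0102. Atg4b, the most active of the proteases on LC3, was at 49.9 and 44.4 CPM in WT mTECs, against 52, 76.3, 67.1 and 71.8 CPM in WT cTECs, with a log2 fold change of -0.45 ± 0.20 and an adjusted p of 0.128. Per length, Atg4a stood at 1.16 and 1.42 times Atg4b in WT mTECs, against 0.748, 0.383, 0.436 and 0.339 times in WT cTECs. Atg4a thus exceeded Atg4b in both WT mTEC libraries and in none of the WT cTEC libraries.

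In the ATG8 family 3 of 5 genes were lower in WT mTECs, against 13.9% of all genes, and the family's composition differed. Map1lc3a (chr2:155276364-155278073), an LC3 isoform, was at 105 and 59 CPM in WT mTECs, against 134, 198, 193 and 221 CPM in WT cTECs. The WT mTEC values differed widely from each other but stayed below all WT cTEC values, and the log2 fold change was -1.13 ± 0.30 with an adjusted p of 0.0284. Map1lc3b (chr8:121590438-121598760), the isoform most used as an autophagosome marker, was at 233 and 225 CPM in WT mTECs, against 394, 331, 385 and 314 CPM in WT cTECs. The groups did not overlap, and the log2 fold change was -0.58 ± 0.16 with an adjusted p of 0.0293. Gabarapl1 (chr6:129533192-129542331), whose promoter is printed above, was at 10.7 and 10.4 CPM in WT mTECs, against 23.1, 37.2, 30.7 and 26.7 CPM in WT cTECs. Both WT mTEC values were less than the lowest WT cTEC value, and the log2 fold change was -1.43 ± 0.26 with an adjusted p of 0.00718. Gabarapl2 pointed the other way, at 54.1 and 50.7 CPM in WT mTECs, against 47.5, 35, 34.6 and 34.1 CPM in WT cTECs, with a log2 fold change of 0.53 ± 0.18 that missed the threshold at an adjusted p of 0.0665. DESeq2 called it, at an adjusted p of 0.0398. Gabarap overlapped between the groups, at 68.7 and 82.2 CPM in WT mTECs, against 65.2 to 73.5 CPM in WT cTECs (adjusted p = 0.458).

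Summed per length, the ATG8 family stood at 469 RPKM in KO mTEC, 367 and 324 RPKM in the WT mTEC libraries, 402 RPKM in KO cTEC, and 493, 513, 541 and 527 RPKM in WT cTEC 1 to 4. The WT cTEC libraries were all above the other 4. Gabarap and Gabarapl2 took larger shares of the sum in WT mTECs. Gabarapl2 made up 14.4% in KO mTEC, 15% and 16% in WT mTECs, 9.27% in KO cTEC, and 9.84, 6.96, 6.53 and 6.61% in WT cTECs, so that the 3 mTEC libraries lay above the 5 cTEC libraries. Gabarap made up 18.3% in KO mTEC, 16.7% and 22.6% in WT mTECs and 18.4% in KO cTEC, whereas its share lay between 11.3% and 12.6% in the WT cTEC libraries. Here KO cTEC lay with the mTEC libraries and not with the WT cTEC libraries.

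**Figure D3:**
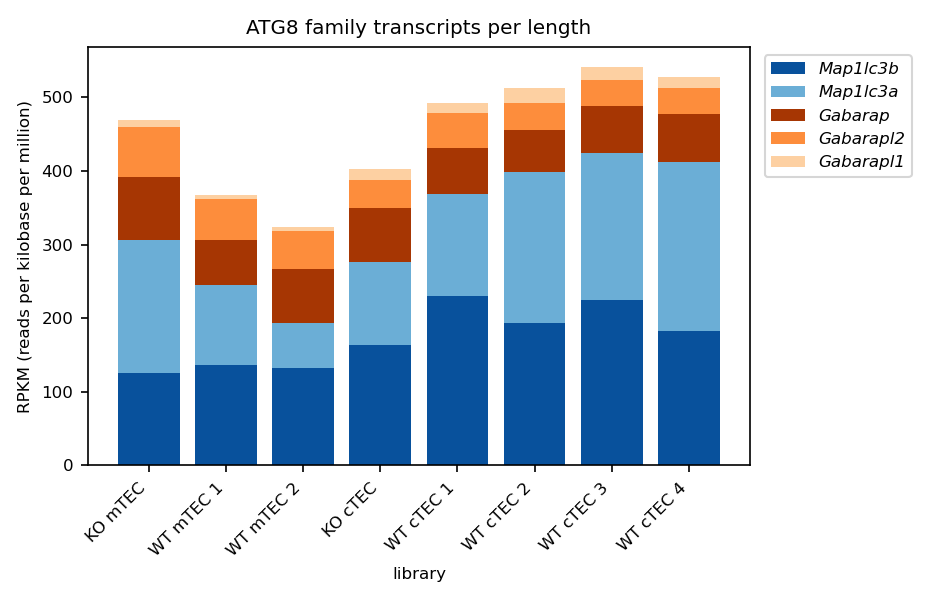
Stacked bars of the level per length (RPKM) of the 5 ATG8 family genes in each library, starting at 0. The total is 324 to 469 RPKM in the 3 mTEC libraries, 402 RPKM in KO cTEC and 493 to 541 RPKM in the WT cTEC libraries, and Gabarapl2 makes up 14.4 to 16% of each mTEC bar and 6.53 to 9.84% of each cTEC bar.

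All 3 cargo receptor genes among the 36 were lower in WT mTECs, against 13.9% of all genes. Sqstm1 (chr11:50200152-50210820) encodes p62, which binds ubiquitylated cargo and LC3, and is itself degraded by autophagy. It was at 164 and 141 CPM in WT mTECs, against 387, 585, 391 and 422 CPM in WT cTECs. No WT mTEC library reached the lowest WT cTEC library, and the log2 fold change of -1.50 ± 0.23, with an adjusted p of 0.00387, was the largest of the 36 in size. Nbr1 (chr11:101552107-101581951), a receptor that works with p62, was at 72.3 and 73.2 CPM in WT mTECs, against 111, 158, 120 and 121 CPM in WT cTECs. The groups were separate, with a log2 fold change of -0.76 ± 0.18 and an adjusted p of 0.0199. Optn (chr2:5020521-5064399), which encodes optineurin, a receptor for damaged mitochondria and bacteria, was at 22.4 and 21.7 CPM in WT mTECs, against 36, 31.4, 38.6 and 34.5 CPM in WT cTECs. The log2 fold change of -0.62 ± 0.19 passed with an adjusted p of 0.0406, but lost its call with size factors of DESeq2 in place of TMM (adjusted p = 0.0549) and at a minimum of 5 CPM (adjusted p = 0.0509).

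The transcription factors that drive lysosome and autophagy genes did not pass the test. Tfeb was at 15.1 and 18.6 CPM in WT mTECs, against 12.5, 18, 17.1 and 14.6 CPM in WT cTECs, with a log2 fold change of 0.16 ± 0.26 (adjusted p = 0.676). Tfe3 was at 37.2 and 39.3 CPM in WT mTECs, against 47.2, 66.2, 51.7 and 53.5 CPM in WT cTECs, with no overlap and a log2 fold change of -0.47 ± 0.19 (adjusted p = 0.0957).

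For 11 of the 36 genes, exons overlap those of another annotated gene, and the labels do not say that counting used strand. The overlap covered 43.9% of the exon length of Becn1 (with Cntd1), 31.8% of Atg9a (with Gm29253), 28.3% of Gabarapl1 (with 1700101I11Rik), 19.3% of Atg4d (with Kri1), 17.6% of Uvrag (with Gm45187) and 17.3% of Sqstm1 (with Mrnip). Over the 8 libraries, Mrnip was at 6.62 to 13.8 CPM, Cntd1 at 0.26 to 3.59 CPM and 1700101I11Rik at 0 to 0.696 CPM. Other partners were higher: Kri1 was at 7.64 to 28.1 CPM, Ankzf1, which overlaps Atg9a by 0.798% of its exon length, at 18.1 to 57.6 CPM, Zcchc14, which overlaps Map1lc3b by 0.772%, at 18.5 to 38.3 CPM, and Gskip, which overlaps Atg2b by 2.85%, at 43.8 to 72.3 CPM. No level was matched here for Gm29253 and Gm45187. The values of these genes are uncertain by the reads that such pairs share.

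**Figure D4:**
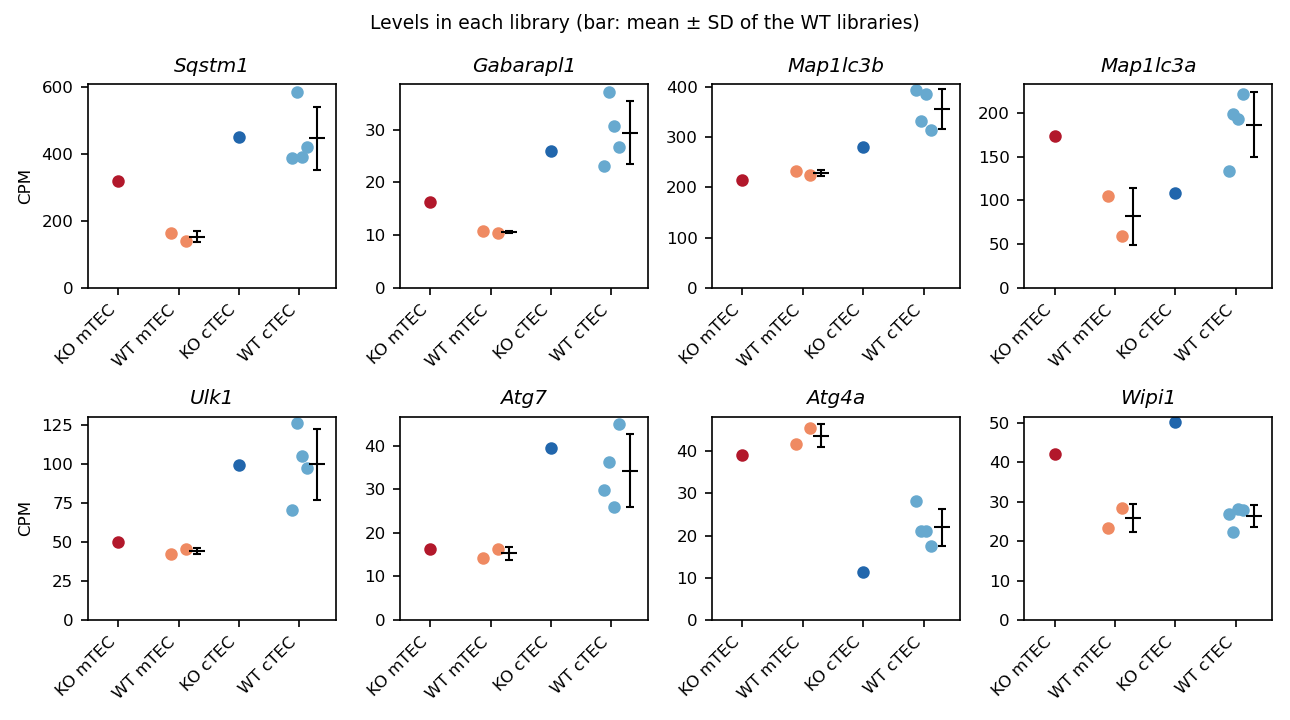
Level in CPM (vertical axis from 0) of 8 autophagy genes in each library, with KO mTEC and WT mTEC left of KO cTEC and WT cTEC; the bar beside each WT group is its mean ± SD (n = 2 and 4). For Sqstm1, KO mTEC (320 CPM) lies between the WT mTEC pair and the WT cTEC libraries, and for Wipi1 both KO libraries lie above all WT libraries.

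Within groups, the spread of the autophagy genes was close to or below that of all genes. The median SD of log2 levels was 0.10 over the 36 genes and 0.16 over all genes in the 2 WT mTEC libraries, and 0.25 and 0.31 in the 4 WT cTEC libraries. All genes were not matched to the 36 by level, so nothing particular to autophagy genes is read from this. WT cTEC 1 held the lowest of the 4 values for 15 of the 36 genes and the highest for 11. Of the genes called between the WT groups, it was nearest to WT mTECs for Ulk1, Uvrag, Ambra1, Map1lc3a, Gabarapl1, Sqstm1, Nbr1 and Atg4a. Another WT cTEC library was nearest for Pik3r4, Atg14, Atg7, Map1lc3b and Optn.

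Around this machinery, other genes of the pathway are given from lists of regulators, later steps and lysosomal genes. In WT mTECs over WT cTECs, 5 of 16 genes of mTOR and AMPK control were lower and 0 higher, against 13.9% and 13.2% of all genes (27.0% called). Sesn1, a sestrin that restrains mTOR, was at 31.1 and 30.8 CPM in WT mTECs, against 116, 99.1, 138 and 85 CPM in WT cTECs, with a log2 fold change of -1.77 ± 0.22 (adjusted p = 0.00207). The others were Prkaa2, a catalytic subunit of AMPK, at -1.21 ± 0.24, Akt1s1, an inhibitor of mTOR complex activity, at -1.07 ± 0.27, Flcn, which encodes folliculin, at -1.04 ± 0.23, and Tsc2, an inhibitor of mTOR signalling, at -0.91 ± 0.20. Of 24 further autophagy genes 7 were lower and 2 higher. Calcoco1, which encodes a receptor for autophagy of the endoplasmic reticulum, was at 31.4 and 31.2 CPM in WT mTECs, against 153, 166, 139 and 146 CPM in WT cTECs, with a log2 fold change of -2.22 ± 0.16 (adjusted p = 0.000617). Its difference was larger than that of any of the 36 genes. Tax1bp1, another receptor gene of this list, was at 522 and 503 CPM in WT mTECs, against 392 to 642 CPM in WT cTECs. Its log2 fold change of 0.19 ± 0.21 did not pass edgeR's test (adjusted p = 0.543). Rubcn, an inhibitor of the UVRAG form of the PI3-kinase complex, and Tecpr1, a tethering factor gene, were both at -1.14 ± 0.22, and Stx17, which encodes the syntaxin of autophagosome fusion, was at -0.66 ± 0.17. The genes that were higher were Nrbf2, a subunit of the ATG14 complex, at 0.72 ± 0.17, and Vamp8, a fusion partner of STX17, at 0.73 ± 0.15.

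Of 10 mitophagy genes 2 were lower in WT mTECs and 1 was higher (30% called), a share close to the 27.0% of all genes. Pink1, the kinase that marks damaged mitochondria, had a log2 fold change of -1.26 ± 0.20 (adjusted p = 0.0047) and Fundc1, a mitochondrial receptor for LC3, one of -0.70 ± 0.22, whereas Bnip3, another mitochondrial receptor, had one of 1.33 ± 0.31 (adjusted p = 0.0174). Of 26 lysosomal genes 10 were lower and 2 higher. Those lower included Psap, which encodes the precursor of the saposins, at -1.49 ± 0.20, Gaa, the acid glucosidase gene, at -1.45 ± 0.25, Mcoln1, the lysosomal calcium channel gene, at -1.06 ± 0.21, and Ctsl, a protease known as a cTEC gene, at -2.26 ± 0.38. Ctss, a protease that myeloid cells also express, was higher at 2.30 ± 0.33, beside the higher sum of dendritic cell and macrophage genes given above. Among the other MiT and FoxO factors and SREBP1, 2 of 5 tested genes were lower: Foxo1 at -1.39 ± 0.19 and Srebf1 at -1.35 ± 0.20. Of 9 genes of the NRF2 pathway, of which Sqstm1 is a known target, 3 were lower (Nfe2l2, which encodes NRF2, its inhibitor Keap1, and the reductase gene Nqo1) and Hmox1, the heme oxygenase gene, was higher. Of 4 BCL-2 family genes Bcl2 was lower, at -1.42 ± 0.28 (adjusted p = 0.00939).

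In KO mTEC over WT mTEC, 0 of the 36 genes were called by edgeR's quasi-likelihood test, as were 0% of all 18163 genes. At an unadjusted p under 0.05 there were 7 of the 36, against 8.27% of all genes, and DESeq2 called 1, Sqstm1, and 0.765% of all genes. This comparison sets 1 library against 2, and the fit assumes that the KO library varies as the WT libraries do. KO mTEC lay above both WT mTEC libraries for 16 of the 36 genes and below both for 14, against 35.9% and 43.7% of all genes (79.6% outside the WT pair in either direction). Since the comparisons of KO with WT and of WT mTECs with WT cTECs share WT libraries, their values are given side by side without a measure of likeness.

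Sqstm1 had the lowest p of the 36 in KO mTEC over WT mTEC. It was at 320 CPM in KO mTEC, against 164 and 141 CPM in WT mTECs. KO mTEC was above both, and below all 5 cTEC libraries. The log2 fold change was 1.10 ± 0.29, with an adjusted p of 0.435 by edgeR and 0.0389 by DESeq2. Map1lc3a was at 174 CPM in KO mTEC, against 105 and 59 CPM in WT mTECs, with a log2 fold change of 1.10 ± 0.40 (adjusted p = 0.542). Wipi1 was at 42.1 CPM in KO mTEC, against 23.3 and 28.3 CPM (log2 0.74 ± 0.26, adjusted p = 0.538), and Gabarapl1 at 16.2 CPM, against 10.7 and 10.4 CPM (log2 0.64 ± 0.34, adjusted p = 0.675). In all 4 of these, KO mTEC exceeded both WT mTEC libraries without passing the test. They were named for their high fold changes over these same libraries, so nothing is read from their side.

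The lowest fold changes in KO mTEC were those of the paralogues Atg2b and Atg2a, while Wipi1, grouped in the same role, was among the highest (log2 0.74). Atg2b was at 13.5 CPM in KO mTEC, against 27.3 and 25 CPM in WT mTECs (log2 -0.92 ± 0.32, adjusted p = 0.531), and Atg2a at 20.8 CPM, against 37.3 and 37.9 CPM (log2 -0.83 ± 0.31, adjusted p = 0.548). Tfeb was at 9.72 CPM in KO mTEC, against 15.1 and 18.6 CPM (adjusted p = 0.648), and Rb1cc1 at 59.4 CPM, against 105 and 92.1 CPM (adjusted p = 0.509). KO mTEC was below both WT mTEC libraries for each of the 4, and none passed the test. Their side again follows from naming the lowest fold changes. Beside these values, the sum of the 6 fibroblast genes was 846 CPM in KO mTEC, against 154 and 140 CPM in WT mTECs, with none of the 6 at 0. The sum of the immediate-early genes was 3961 CPM, against 2755 and 1686 CPM. Their part in the values of KO mTEC was not tested.

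In KO cTEC over WT cTEC, 1 of the 36 genes was called (2.78%), against 17.5% of all genes, of which 5.10% were higher and 12.4% lower. At an unadjusted p under 0.05 there were 5 of the 36, against 32.1% of all genes. The median log2 fold change was -0.01 over the 36 genes and -0.14 over all genes. KO cTEC lay above all 4 WT cTEC libraries for 8 genes and below all 4 for 8, against 29.1% and 33.0% of all genes (62.0% outside the WT range in either direction). KO cTEC, 1 library, was again assumed to vary as the WT libraries do.

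The gene called was Wipi1 (chr11:109573521-109611389), which was higher in KO cTEC. It was at 50.1 CPM in KO cTEC, against 26.9, 22.4, 28.2 and 28 CPM in WT cTECs. KO cTEC was above every WT library, and the log2 fold change was 0.92 ± 0.23 with an adjusted p of 0.0276. The call was lost without WT mTEC 1 (adjusted p = 0.0583), WT mTEC 2 (0.0573) or WT cTEC 3 (0.0508), all by the same test. Its relative Wipi2 was at 104 CPM in KO cTEC, against 58.4, 81, 56.7 and 57.7 CPM, and missed the threshold (log2 0.71 ± 0.23, adjusted p = 0.0692). Without WT cTEC 2, the WT cTEC library nearest to KO cTEC for this gene, its adjusted p was 0.023, and without each of the other WT libraries it was 0.0711 to 0.136. Nbr1 was at 172 CPM in KO cTEC, against 111 to 158 CPM in WT cTECs (log2 0.43 ± 0.22, adjusted p = 0.223), and Atg2b at 49.3 CPM, against 28 to 41.8 CPM (log2 0.44 ± 0.27, adjusted p = 0.299).

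On the low side, Atg4a was at 11.3 CPM in KO cTEC, against 28.1, 21.1, 21.2 and 17.6 CPM in WT cTECs. It lay below every other library, with a log2 fold change of -0.96 ± 0.30 and an adjusted p of 0.0622, and passed the test of DESeq2 (adjusted p = 0.0356). Per length, Atg4a was 0.199 times Atg4b in KO cTEC, below the 0.339 to 0.748 times of the WT cTEC libraries. Map1lc3a was at 108 CPM in KO cTEC, against 134 to 221 CPM in WT cTECs (log2 -0.79 ± 0.39, adjusted p = 0.207), and Uvrag at 36.3 CPM, against 46 to 70.5 CPM (log2 -0.69 ± 0.29, adjusted p = 0.137). Rb1cc1 was at 82.3 CPM, against 108 to 131 CPM (log2 -0.54 ± 0.22, adjusted p = 0.124). Each of these lay below all 4 WT cTEC libraries without passing the test, as genes named for the lowest fold changes over these libraries mostly would. Becn1, whose product MCL-1 can bind, was at 154 CPM in KO mTEC, against 119 and 120 CPM in WT mTECs, and at 141 CPM in KO cTEC, against 124 to 139 CPM in WT cTECs (adjusted p = 0.636 and 0.7).

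Lists of other cell types differed in KO cTEC, and not all in one direction. The sum of the 8 tuft cell genes was 39.4 CPM, with 4 of the 8 at 0, against 1048 to 1722 CPM in WT cTECs, and the sum of the 9 dendritic cell and macrophage genes was 11.6 CPM, with 3 of the 9 at 0, against 143 to 251 CPM. Of 10 mTEC genes 9 were lower in KO cTEC, and all 8 tuft cell genes were. Of the 6 fibroblast genes 2 were higher, with a sum of 790 CPM in KO cTEC, against 602 to 887 CPM in WT cTECs, and none at 0. Atg4a, which was higher in WT mTECs than in WT cTECs, was one of the genes lowest in KO cTEC. The part of these cell types in the values of KO cTEC and WT cTEC was not tested.

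Of the 12 genes lower in WT mTECs, KO cTEC was within the WT cTEC range for 7, above it for 1 (Nbr1) and below it for 4. KO mTEC was above both WT mTEC libraries for 7 of the 12, below both for 3 and between them for 2, against 35.9% above and 43.7% below over all genes. The 12 were chosen for low values in those same WT mTEC libraries and high values in those WT cTEC libraries, so nothing is read from these counts. Sqstm1, Gabarapl1, Ulk1 and Atg7 were at 452, 26, 99.3 and 39.5 CPM in KO cTEC, each within the range of the 4 WT cTEC libraries.

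**Figure D5:**
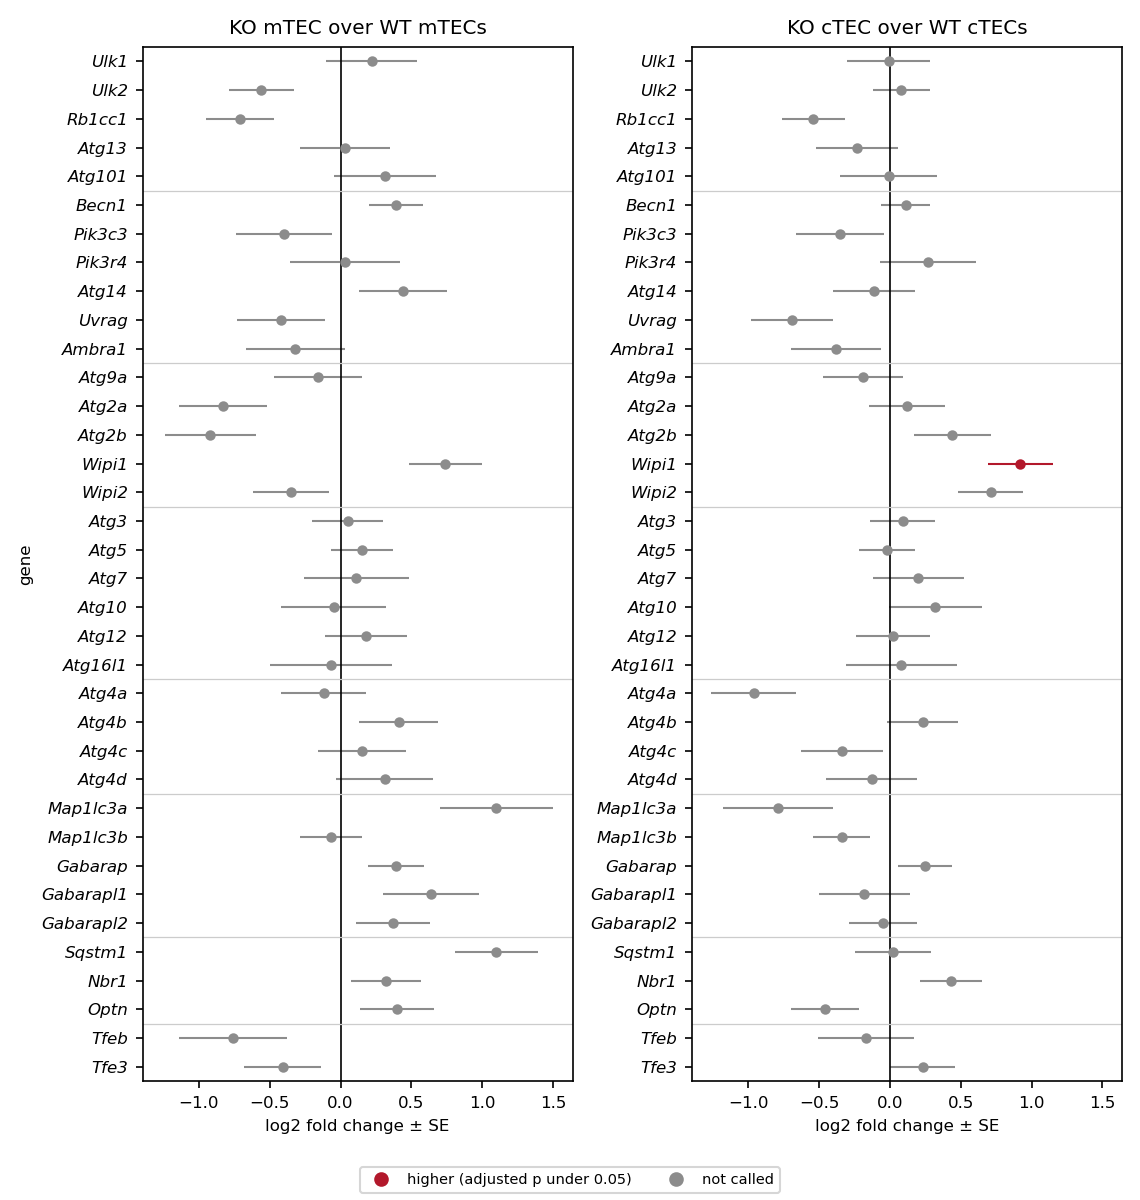
Log2 fold change (points) and its standard error (bars) of the 36 autophagy genes in KO mTEC over WT mTECs (left panel; 1 and 2 libraries) and in KO cTEC over WT cTECs (right panel; 1 and 4 libraries). Wipi1, at 0.92 in the right panel, is the gene marked as called, and Map1lc3a lies at 1.10 in the left panel and at -0.79 in the right.

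The difference of the KO effects between the populations was tested in the same fit. None of the 36 genes was called (0 of 36), against 6.81% of all genes (6.16% higher and 0.644% lower). At an unadjusted p under 0.05 there were 6 of the 36, against 19.3% of all genes, and DESeq2 called 1, Map1lc3a, and 11.3% of all genes. Map1lc3a had the lowest p, with a difference of 1.90 ± 0.56 (log2, mTEC minus cTEC) and an adjusted p of 0.0942. It passed without WT mTEC 1 (adjusted p = 0.0491), where both mTEC groups are 1 library, and without WT cTEC 1 (adjusted p = 0.0318). It did not pass without WT mTEC 2 (0.191), WT cTEC 2 (0.161), WT cTEC 3 (0.155) or WT cTEC 4 (0.129), nor with limma-voom (0.157). Atg2b and Wipi2 followed, at -1.36 ± 0.42 and -1.06 ± 0.36, with adjusted p-values of 0.104 and 0.143. When both KO libraries were counted as replicates of the knockout, with population as a second term, 0 of the 36 genes were called, against 0.204% of all genes (0.182% higher and 0.0220% lower). At an unadjusted p under 0.05 there were 5 of the 36, against 18.5% of all genes. Wipi1 was higher in both KO libraries (0.84 ± 0.17, adjusted p = 0.0823) and Rb1cc1 lower in both (-0.62 ± 0.15, adjusted p = 0.111), and DESeq2 called both (adjusted p = 0.00167 and 0.0136). DESeq2 called 8.4% of all genes here. Without KO mTEC, Wipi1 passed edgeR's test (adjusted p = 0.0285), but that fit rests on KO cTEC alone and repeats the comparison of KO cTEC with WT cTECs. Without KO cTEC the lowest adjusted p of the 36 was 0.448.

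In the neighbouring lists, 0 genes were called in KO mTEC over WT mTEC in any of the 7 lists. In KO cTEC over WT cTEC, 2 of 16 genes of mTOR and AMPK control were called (12.5%), both higher. The share called was 20.8% among the 24 further autophagy genes, 10% among the mitophagy genes and 11.5% among the lysosomal genes, against 17.5% of all genes (5.10% higher and 12.4% lower). Sesn1 was at 212 CPM in KO cTEC, against 85 to 138 CPM in WT cTECs (log2 0.95 ± 0.25, adjusted p = 0.0331), and Sesn2 at 63.5 CPM, against 28.9 to 40.3 CPM (log2 0.92 ± 0.24, adjusted p = 0.0316). Both sestrin genes are known targets of p53. Of the 24 further autophagy genes 1, Calcoco1, was higher (0.66 ± 0.18) and 4 were lower: Vamp8 (-1.33 ± 0.22), Vmp1 (-0.94 ± 0.20), which encodes a scramblase of the endoplasmic reticulum, Trp53inp2 (-1.06 ± 0.25) and Atg9b, which had 0 counts in KO cTEC. Vamp8 was at 107 CPM in KO cTEC, against 253 to 283 CPM in WT cTECs. Of 10 mitophagy genes Phb2, which encodes a prohibitin of the inner mitochondrial membrane, was higher, at 259 CPM, against 131 to 160 CPM. Of 26 lysosomal genes Gaa was higher and Ctss and Npc1 were lower, Ctss beside the low sum of dendritic cell and macrophage genes. Of 9 NRF2 pathway genes Nqo1 was higher, at 517 CPM, against 105 to 159 CPM in WT cTECs, while Hmox1 and Slc7a11 were lower. None of the 5 MiT and FoxO factors tested was called, and of the BCL-2 family genes Mcl1 itself was lower.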

How the data were processed

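The deposited values are raw counts of reads per gene, which the authors made with featureCounts against mm10, per the submitters' processing notes. Aligner, annotation and software versions were not given in the sources used here. The deposited tables also hold a gene model length, used only for RPKM. Per the labels, RNA came from frozen pellets and its cDNA was amplified by a low-input kit, so reads carry no molecular identifiers. A series-wide table was not used, because its 8 columns match no sample label. Symbols were found for 25275 of 27179 gene identifiers (93%).

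Genes with at least 1 CPM in at least 2 libraries (18163) were tested on all 8 libraries with edgeR 4.0.16 (R 4.3.3; TMM factors of 0.949 to 1.04; robust quasi-likelihood F test, two-sided), fitting either a mean for each group, which leaves 4 residual degrees of freedom, or additive terms for population and genotype, which leaves 5. Benjamini-Hochberg adjustment ran over all genes tested, and genes under 0.05 are called. The SE is the absolute log2 fold change divided by the square root of F. Alternatives used DESeq2 1.42.0, limma 3.58.1, other scalings and filters, and fits without each library. The procedure was also run on simulated counts with the same spread setting for all genes. That run is no measure of how reliable the calls from single KO libraries are. CPM is counts over the library total. Promoters came from RefSeq (GRCm38.p6).

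The 36 genes and all lists were chosen with earlier results of these data known. All 36 may be named; per comparison those called are named, and where fewer than 4 were called in a direction, the largest fold changes up to 4 are given as values. Replicates were not duplicates: chi-square per gene was 22.5 to 87 between libraries of a group. Marker lists for thymocytes, B cells and endothelium were also checked: in WT mTECs over WT cTECs, 1 of 10 thymocyte genes was lower, 1 of 4 B cell genes was higher and 0 of 4 endothelial genes were called.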

Additional observations from a re-analysis of the deposited data

Results flagged for a closer look

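Among the 36 autophagy genes, 5 had 1 of the 4 WT cTEC libraries far from the other 3, by Dixon's test at 95%. Chance alone flags about 1 in 20 groups, and 36 were looked at. Ulk2 was at 70.3 CPM in WT cTEC 1, against 57.1 to 58 CPM in the other 3. Ambra1 was at 33.3 CPM in WT cTEC 1, against 52.9 to 54.4 CPM. Gabarapl2 was at 47.5 CPM in WT cTEC 1, against 34.1 to 35 CPM. Atg14 was at 25.1 CPM in WT cTEC 2, against 32.9 to 34.4 CPM, and Wipi2 was at 81 CPM in WT cTEC 2, against 56.7 to 58.4 CPM. WT cTEC 1 thus accounts for 3 of the 5. It is also the WT cTEC library with the lowest sum of immediate-early genes (3487 CPM, against 20940 to 30020 CPM). Its levels of Psmb11 (414 CPM, against 146 to 288 CPM) and Aire (121 CPM, against 29.1 to 77.7 CPM) were the highest of the WT cTEC libraries. Whether any of these differences bears on the flagged values was not tested.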

How the results depend on the processing

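The count of autophagy genes called in WT mTECs over WT cTECs was 13, and 12 to 14 with other scalings, filters and tools. Leaving out 1 library gave 0 to 19. With WT libraries 1 and 2 only, 2 genes were called with the replicate block and 4 without it; the fit without it was added after seeing the data. Deviations of same-numbered libraries from their group means had correlations of -0.158 and -0.0619. The deviations of the WT mTEC pair mirror each other, so these values are not separate checks and cannot exclude a pairing. The labels state no pairing, and replicate numbers were not treated as one. In KO cTEC over WT cTEC the count of 1 became 2 at a minimum of 5 CPM and 2 with DESeq2, 4 with WT cTEC 1 as the only WT cTEC library (added after seeing the data; 1 library against 1, with 1 residual degree of freedom from the WT mTEC pair, and 34.1% of all genes called), and 0 to 3 with 1 library left out. In KO mTEC over WT mTEC the count of 0 became 1 with DESeq2. For the difference of the KO effects 0 became 1 with DESeq2, 4 with WT cTEC 1 alone, and 0 to 1 with 1 library left out. Over both populations 0 became 2 with DESeq2 and 0 to 1 with 1 library left out. Atg10 changed sign in WT mTECs over WT cTECs, to -0.05, with WT cTEC 1 alone. The cause of these changes was not tested, except that fits without a library have fewer samples. Other scalings moved the median of all genes in this comparison from 0.06 to 0.13 or 0.02. Each KO group is 1 library, so its spread is assumed.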

Other observations

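Atg9b, the less widely expressed paralogue of Atg9a, had 0 counts in KO cTEC, against a mean of 8.17 ± 2.93 CPM in WT cTECs (SD, n = 4). With an upper limit of 3 counts in the KO cTEC library (0.196 CPM; counting error only), the level was at least 41.7-fold lower. In KO mTEC it was at 8.51 CPM, against 12.2 and 10.8 CPM in WT mTECs. The difference of the KO effects passed edgeR's quasi-likelihood test (adjusted p = 0.00652). The gene was chosen for mention after its values were seen. KO cTEC also had 0 counts of Aire, and 9 of 10 mTEC genes and all 8 tuft cell genes were lower in it than in WT cTECs. The part of such cells in the Atg9b values was not tested.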
